A study of Mus musculus with 11 samples.

Results

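NF-kappaB feedback and target genes were described in mouse AKP colon cancer organoids by poly(A) RNA sequencing. The 9 genes were fixed by name, without a rule on their values, but with earlier results of these data known. Counts over the 9 therefore describe a chosen list. They are the ligand gene Tnf, the subunit genes Nfkb1, Nfkb2 and Relb, the feedback genes Nfkbia, Tnfaip3 and Birc3, and the target genes Icam1 and Tnfaip2. Each of the 9 matched a row among 23224 listed gene names, and each was among the 13720 genes with enough counts to be tested. The labels of all 11 libraries give AKP as the genotype. 3 libraries came from naive organoids that had no recipient mouse. 3 came from organoids grown out of primary tumours of C57Bl6 mice, which are immunocompetent, and 3 from tumours of RAG2KO mice, in which T and B lymphocytes do not mature. For both hosts, naive organoids were first delivered into the colon with a colonoscope, and the tumour organoids were passaged until cancer cells alone were left, so every library is of cultured organoids away from the host. 2 further libraries came from naive organoids that carry lentiviral SOX17 (SOX17OE), as 1 constitutive line and 1 line inducible by doxycycline. Neither line has a replicate, and the sources used here do not state if the inducible line received doxycycline.

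NF-kappaB is a family of dimeric transcription factors that inhibitor proteins hold in the cytoplasm. When TNF, interleukin 1 or bacterial products reach their receptors, adaptor proteins and ubiquitin enzymes activate the IKK kinase, the inhibitor IkappaBalpha is degraded, and dimers such as p50 with RelA enter the nucleus. Several of the genes they switch on, Nfkbia and Tnfaip3 among them, encode brakes on the same pathway, and a second, slower branch through the kinase NIK turns the Nfkb2 product p100 into p52, the partner of RelB. In the gut epithelium the pathway is known for its part in the response to microbes and in inflammation that accompanies colon cancer.

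The upstream sequences of 3 of the feedback and subunit genes are shown because they hold the NF-kappaB binding consensus and because 2 of these genes, Nfkbia and Nfkb2, moved in opposite directions between the hosts. The consensus is a motif of 10 letters with ambiguous positions and was searched on both strands of the 250 bases before each RefSeq start (GRCm38.p6), where matches may overlap. RefSeq windows were found for 7 of the 9 genes. 3 of these 7 held a match in at least 1 window, against 4.46% of 27025 genes, and 3.9% of all 32851 windows held one. Capitals mark the matches, and sequences run 5′ to 3′ on the strand of the gene.
Nfkbia, chr12:55492648-55492897, minus strand: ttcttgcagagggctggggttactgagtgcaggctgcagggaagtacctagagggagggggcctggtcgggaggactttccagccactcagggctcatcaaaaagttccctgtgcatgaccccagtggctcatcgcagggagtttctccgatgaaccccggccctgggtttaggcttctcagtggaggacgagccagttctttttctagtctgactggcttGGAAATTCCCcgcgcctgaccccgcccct
Nfkb2, chr19:46304487-46304736, plus strand: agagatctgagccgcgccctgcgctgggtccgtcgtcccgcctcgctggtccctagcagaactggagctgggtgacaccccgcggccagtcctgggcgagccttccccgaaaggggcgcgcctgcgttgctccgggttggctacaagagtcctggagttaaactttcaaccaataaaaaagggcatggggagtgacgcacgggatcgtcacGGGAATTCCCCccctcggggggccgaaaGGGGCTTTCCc
Tnfaip3, chr10:19015411-19015660, minus strand: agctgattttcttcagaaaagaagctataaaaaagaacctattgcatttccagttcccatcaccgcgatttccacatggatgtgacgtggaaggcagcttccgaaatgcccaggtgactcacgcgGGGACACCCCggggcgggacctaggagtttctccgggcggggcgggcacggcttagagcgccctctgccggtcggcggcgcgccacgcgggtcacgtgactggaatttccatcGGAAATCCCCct
The match of Nfkbia starts 29 bases before the start of transcription. Nfkb2 has 3 overlapping or neighbouring matches within 39 bases of the first of its 3 starts, and Tnfaip3 has matches 125 and 12 bases before the first of its 2 starts. Other starts of Nfkb2 held 1 match each. A match describes letters and is not evidence of binding.

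Levels are in CPM, counts relative to library size with TMM scaling, as mean ± SD with n = 3 per group, and differences are log2 fold changes with their standard error (SE) from edgeR's quasi-likelihood test. A gene was called at an adjusted p under 0.05 over all 13720 genes. Library totals ran from 14109182 to 22154456 expected counts, and the 9 genes held from 48 to 2473 counts in a library. Sox17, the gene of the constructs, stood at 0.0438 to 0.214 CPM in naive, 12.4 to 74.3 CPM in C57Bl6 and 15.4 to 24.4 CPM in RAG2KO organoids, with 72.7 CPM in the constitutive and 4.78 CPM in the inducible line. Each of the 7 epithelial markers was detected in every group, and their sum stood at 8818 to 11305 CPM in the replicated groups, 6478 CPM in the constitutive and 8155 CPM in the inducible line. Cdh1 of that list was at 308 to 312 CPM in RAG2KO, 490 to 751 in C57Bl6 and 417 to 569 CPM in naive organoids. In the same order of groups Epcam was at 1096 to 1339, 843 to 1018 and 974 to 1035 CPM. Krt18 was at 1371 to 1600, 1550 to 1978 and 1128 to 1186 CPM. Krt19 was at 4096 to 5023, 3504 to 4550 and 3046 to 3985 CPM. Krt8 was at 1959 to 2108, 1855 to 2603 and 3139 to 3689 CPM. Vil1 was at 248 to 355, 218 to 248 and 378 to 423 CPM. Cldn7 was at 261 to 334, 283 to 441 and 301 to 420 CPM. The sum of 5 colon markers was 1611 to 1675 CPM in naive, 894 to 1228 in C57Bl6 and 1064 to 2004 in RAG2KO organoids, 635 CPM in the constitutive and 2681 CPM in the inducible line. Car2 gave most of this sum in every library. Cdx2 of the list stood at 99.3 to 146 CPM in naive, 41.9 to 58.1 in C57Bl6 and 38.3 to 54.7 in RAG2KO organoids. In the constitutive and inducible lines Cdx2 was at 34.3 and 103 CPM. The stem cell gene Lgr5 of the list stood at 50.2 to 71.7 CPM in naive, 44.9 to 64.1 in C57Bl6 and 8.17 to 22.3 in RAG2KO organoids, and at 1.56 and 6.30 CPM in the lines. The part of these markers in the results was not tested. RAG2KO replicate 2 and the constitutive line also had the highest sums of 7 fibroblast markers (8.93 and 6.57 CPM, against at most 1.01 CPM elsewhere). Col3a1 alone gave 7.07 and 5.24 CPM of these sums. Next were Dcn with 1.28 CPM in RAG2KO replicate 2 and Pdgfra with 1.33 CPM in the constitutive line. The remaining markers were at most 0.175 CPM in RAG2KO replicate 2 and at 0 in the constitutive line. The part of these markers in the results was not tested. Among the 16 leukocyte markers, Ncr1 and Tyrobp were at 0 in each library, and the sum of the list was 4.07 to 11.2 CPM in naive, 6.06 to 10.5 in C57Bl6, 6.47 to 16.5 in RAG2KO, 15 in constitutive and 5.83 CPM in inducible organoids; the macrophage marker Cd68, which other cells also express, gave 3.29 to 14.5 CPM of it. The share of ribosomal precursor RNA (Rn45s) among the counts was 2.42 to 4.99% for naive, 2.21 to 3.77% for C57Bl6 and 6.56 to 8.54% for RAG2KO organoids, 6.39% in the constitutive and 3.71% in the inducible line, and its part in the results was not tested. The samples are bulk cultures, in which fewer cells that express a gene and less RNA per cell cannot be told apart.

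The 9 genes were called most often between the hosts. RAG2KO tumour organoids had more Tnf, Nfkbia and Birc3 RNA than C57Bl6 tumour organoids, and less Nfkb1, Nfkb2 and Icam1 RNA. Thus 6 of the 9 genes were called, 3 higher and 3 lower, where 24.0% of all genes were called (11.8% higher and 12.2% lower); the count was 3 without C57Bl6 replicate 1 or replicate 3. In each of the 6 the 3 libraries of one host lay outside the range of the other host, which was so for 39.8% of all genes. Against naive organoids 2 of 9 genes were higher in C57Bl6 organoids, Icam1 and Nfkb2 (15.3% of all genes were called, and 9.50% were called higher). Leaving out naive replicate 1 left 0, and leaving out naive replicate 2 or 3 or any 1 of the C57Bl6 replicates left 1. In RAG2KO organoids another 2 of 9 were higher, Tnf and Birc3, a share below the 29.2% of all genes called (16.0% higher); the count was 1 without naive replicate 2 or RAG2KO replicate 2. All 3 libraries lay above naive for 5 of 9 genes in C57Bl6 organoids, Tnf, Tnfaip3, Nfkb1, Nfkb2 and Icam1 (19.9% of all genes), and for 2 in RAG2KO organoids, Tnf and Birc3 (24.8% of all genes). Both comparisons use the same 3 naive libraries. In the SOX17OE lines no gene of the 9 was called by edgeR, where 12.7% of all genes were, although 5 had an unadjusted p under 0.05; DESeq2 called 2 and limma voom 3.

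**Figure D1:**
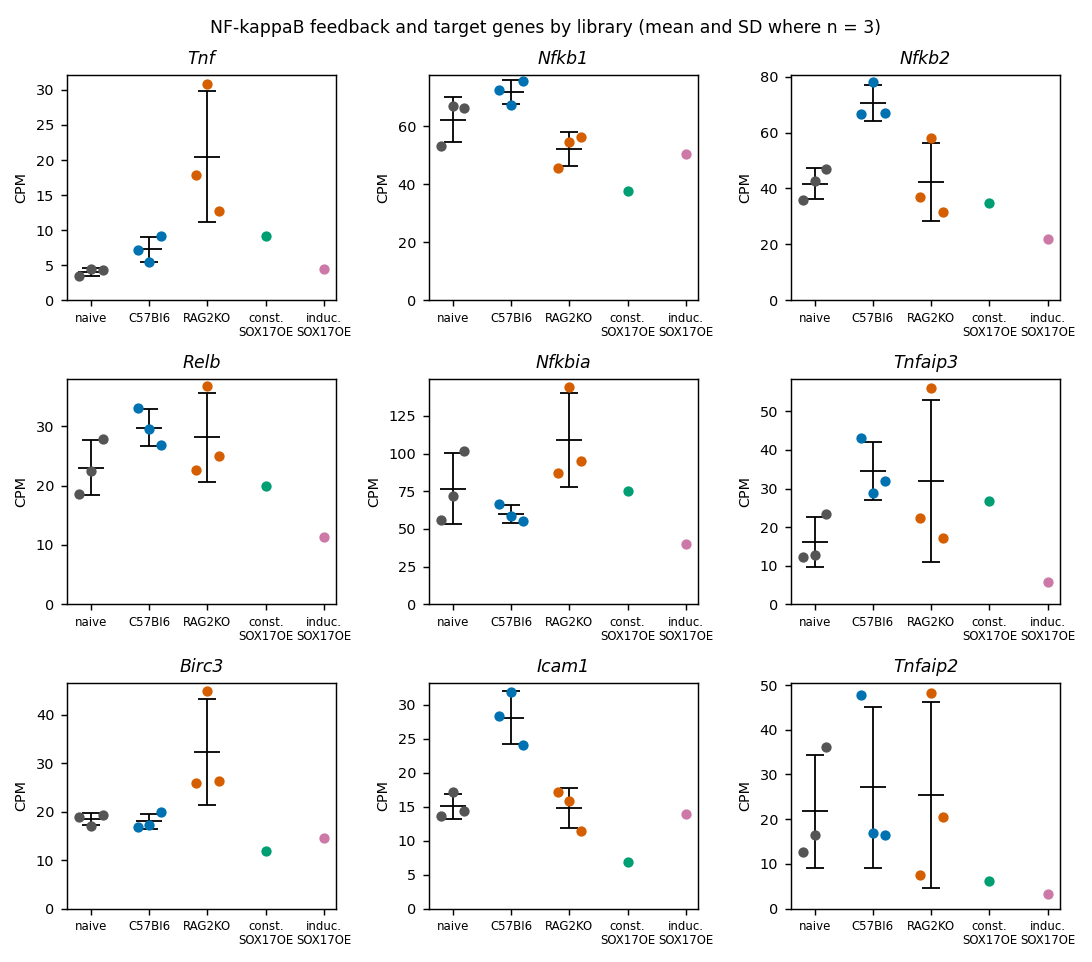
Level in CPM (vertical axes, each from 0) of the 9 genes in the 11 libraries by group (horizontal axes); points are libraries, and the horizontal line and bar are the mean and SD of the groups with 3 libraries. Tnf is highest in the 3 RAG2KO libraries and Icam1 in the 3 C57Bl6 libraries. RAG2KO replicate 2 is the highest of the 11 libraries for 6 of the 9 genes (12.0% of all genes).

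Tnf encodes the cytokine TNF, which both activates NF-kappaB and is a product of it. It stood at 3.43, 4.47 and 4.24 CPM in naive, 7.18, 5.44 and 9.09 CPM in C57Bl6 and 17.8, 30.8 and 12.8 CPM in RAG2KO organoids. The 3 groups did not overlap, with every C57Bl6 library above naive and every RAG2KO library above C57Bl6. The rise in RAG2KO organoids from 4.05 ± 0.546 to 20.5 ± 9.32 CPM was called (log2 fold change 2.33, SE 0.33, adjusted p = 0.00134), as was the difference between the hosts (1.5, SE 0.32, adjusted p = 0.0110). Both calls held under each of their 21 alternatives, and without RAG2KO replicate 2 the difference between the hosts was 1.08. The C57Bl6 organoids, with 7.24 ± 1.83 CPM, did not pass against naive (0.83, SE 0.33, adjusted p = 0.116), though limma voom called the gene (0.0450; range over its alternatives 0.0450 to 0.306). In the constitutive line Tnf was at 9.11 CPM, above the naive libraries, and in the inducible line at 4.43 CPM, within their range. Among naive and tumour libraries the leukocyte marker sums given above were highest in RAG2KO replicates 2 and 3 (14.1 and 16.5 CPM). Ptprc, the common leukocyte gene, was at 0.117 to 0.135 CPM in RAG2KO, 0.0876 to 0.238 in naive and 0.157 to 1.01 in C57Bl6 libraries. Csf1r of the same list was at 0.472, 1.28 and 0.374 CPM in RAG2KO, 0 to 0.143 in naive and 0.0561 to 0.524 in C57Bl6 libraries. Itgam was at 1.15, 0.175 and 1.81 CPM in RAG2KO, 0.131 to 0.214 in naive and 0.112 to 1.41 in C57Bl6 libraries. Laptm5 was at 0 in RAG2KO, 0 to 0.0477 in naive and 0.224 to 0.455 CPM in C57Bl6 libraries. The part of other cells in the Tnf values was not tested.

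Nfkb1 encodes p105 and its product p50, the subunit of the fast branch. Its levels were 53.2, 67.0 and 66.4 CPM in naive, 72.4, 67.3 and 75.5 in C57Bl6 and 45.4, 54.5 and 56.4 CPM in RAG2KO organoids. Each C57Bl6 library was above each naive library by a small margin, and the RAG2KO libraries overlapped the naive ones. Neither tumour group passed against naive (log2 fold change 0.20, SE 0.13, adjusted p = 0.342 in C57Bl6 and -0.26, SE 0.14, adjusted p = 0.178 in RAG2KO), but between the hosts the gene was lower in RAG2KO by 0.46 (SE 0.14, adjusted p = 0.0343). That call ended without naive replicate 2 (0.0561), C57Bl6 replicate 1 (0.0705) or 3 (0.102), or RAG2KO replicate 1 (0.0938), 2 (0.0627) or 3 (0.0537). It also ended with upper quartile scaling (0.0758) and when the 2 groups alone were fitted (0.0608), over a range of 0.0191 to 0.102.

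Nfkb2 encodes p100, which is both an inhibitor and, once processed to p52, a subunit of the slow branch. The naive libraries had 35.7, 42.6 and 47.0 CPM, the C57Bl6 libraries 66.5, 78.0 and 67.0 and the RAG2KO libraries 37.1, 58.2 and 31.7 CPM. The C57Bl6 libraries lay above all others, and RAG2KO replicate 2 stood between the groups. Nfkb2 rose in C57Bl6 organoids, where 70.5 ± 6.47 CPM compared with 41.8 ± 5.66 CPM in naive ones (log2 fold change 0.75, SE 0.21, adjusted p = 0.0388) and was lower in RAG2KO than in C57Bl6 organoids by 0.74 (SE 0.21, adjusted p = 0.0325). In RAG2KO organoids it had 42.3 ± 14 CPM, a log2 fold change of 0.02 from naive with a 95% interval of -0.45 to 0.49. The call against naive ended without any 1 of the 6 libraries compared, with adjusted p of 0.143, 0.111 and 0.0578 without naive replicates 1, 2 and 3 and 0.0576, 0.104 and 0.0752 without C57Bl6 replicates 1, 2 and 3 (range over alternatives 0.00518 to 0.143). The call between the hosts ended without naive replicate 2 (0.0537), C57Bl6 replicate 1 (0.0530), 2 (0.0809) or 3 (0.0681), or RAG2KO replicate 1 (0.0856) or 3 (0.0970), with upper quartile scaling (0.0546) and in a fit of these 2 groups (0.0620). Its alternatives ranged from 0.00836 to 0.0970.

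Relb encodes the partner of p52. It had 18.7, 22.5 and 27.8 CPM in naive, 33.0, 29.5 and 26.8 in C57Bl6 and 22.6, 36.7 and 25 CPM in RAG2KO libraries. The 3 groups overlapped, and no comparison called the gene in the main fit or any alternative run (log2 fold change 0.37, 95% interval -0.10 to 0.84, in C57Bl6 and 0.29, -0.18 to 0.76, in RAG2KO against naive). Between the hosts the difference was -0.08 with an interval of -0.55 to 0.39.

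Nfkbia encodes IkappaBalpha, the inhibitor that is destroyed and then made anew in each round of activation. It stood at 55.7, 72 and 102 CPM in naive, 66.7, 58.4 and 55.1 CPM in C57Bl6 and 86.9, 144 and 95 CPM in RAG2KO organoids. The 2 tumour groups did not overlap, with the naive libraries spread over both. RAG2KO organoids had 109 ± 31.1 and C57Bl6 organoids 60.1 ± 6.0 CPM (log2 fold change 0.86, SE 0.24, adjusted p = 0.0301). This call ended without C57Bl6 replicate 2 (0.0689) or 3 (0.0927) or RAG2KO replicate 2 (0.0913), over a range of 0.00488 to 0.0927. Against naive organoids, with 76.6 ± 23.5 CPM, the log2 fold changes were -0.35 (SE 0.24, adjusted p = 0.363) in C57Bl6 and 0.51 (SE 0.24, adjusted p = 0.139) in RAG2KO organoids. Without RAG2KO replicate 2 the RAG2KO value was 0.25 (adjusted p = 0.469). It passed with limma voom (0.0415) and without naive replicate 3 (0.0451; range 0.0415 to 0.469).

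Tnfaip3 encodes A20, a ubiquitin-editing enzyme that shuts down signalling from TNF and Toll-like receptors. Its levels were 12.2, 12.7 and 23.5 CPM in naive, 43.1, 28.8 and 32.0 in C57Bl6 and 22.4, 55.9 and 17.3 CPM in RAG2KO libraries. The C57Bl6 libraries were all above the naive ones, and the RAG2KO libraries spanned both groups. The difference of C57Bl6 from naive organoids was 1.10 (SE 0.43, adjusted p = 0.122), and it passed without RAG2KO replicate 2 (0.0246), in a fit of the 2 groups alone (0.0350) and with limma voom (0.00576; range 0.00576 to 0.317). In RAG2KO organoids it was 0.98 (SE 0.43, adjusted p = 0.118), or 0.30 without RAG2KO replicate 2, and it passed without RAG2KO replicate 3 (0.0486) and with limma voom (0.0309; range 0.0309 to 0.530).

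Birc3 encodes cIAP2, a ubiquitin ligase at the TNF receptor that keeps the slow branch in check and protects cells from death. The naive libraries had 19.0, 17.0 and 19.3 CPM, the C57Bl6 libraries 16.8, 17.3 and 19.9 and the RAG2KO libraries 25.9, 45 and 26.3 CPM. Naive and C57Bl6 organoids covered the same range, and every RAG2KO library was above it. Birc3 rose from 18.4 ± 1.24 in naive to 32.4 ± 10.9 CPM in RAG2KO organoids (log2 fold change 0.81, SE 0.21, adjusted p = 0.0189) and was higher than in C57Bl6 organoids by 0.85 (SE 0.21, adjusted p = 0.0194). Without RAG2KO replicate 2 these values were 0.50 (adjusted p = 0.0511) and 0.54. The call against naive also ended without naive replicate 2 (0.0760; range 0.00404 to 0.0760), and the call between the hosts without C57Bl6 replicate 1 (0.0529; range 0.00285 to 0.0529). The log2 fold change of C57Bl6 organoids from naive was -0.03 with an interval of -0.51 to 0.44.

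Icam1 encodes an adhesion molecule that leukocyte integrins bind and is a classical NF-kappaB target. It had 13.7, 17.1 and 14.4 CPM in naive, 28.2, 31.8 and 24.0 in C57Bl6 and 17.1, 15.8 and 11.4 CPM in RAG2KO libraries. The C57Bl6 libraries stood above all the others, and naive and RAG2KO libraries overlapped. Icam1 was lower in RAG2KO organoids than in C57Bl6 organoids by 0.92 (SE 0.19, adjusted p = 0.00936), and this call held under each of its 21 alternatives. In C57Bl6 organoids it had risen to 28.0 ± 3.89 CPM, with 15.1 ± 1.83 CPM in naive ones (log2 fold change 0.89, SE 0.19, adjusted p = 0.0115), a call that ended without naive replicate 1 (0.0555; range 4.86e-04 to 0.0555). RAG2KO organoids differed from naive ones by -0.03 with an interval of -0.45 to 0.39.

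Tnfaip2, a TNF-induced gene of endothelial and epithelial cells, varied most among replicates. It had 12.7, 16.4 and 36.2 CPM in naive, 47.8, 16.9 and 16.6 CPM in C57Bl6 and 7.55, 48.2 and 20.6 CPM in RAG2KO organoids. Naive replicate 3, C57Bl6 replicate 1 and RAG2KO replicate 2 stood above the rest of their groups, and the groups overlapped. No difference between these 3 groups was called in the main fit or any alternative run (log2 fold change 0.31 with SE 0.67 in C57Bl6, 0.23 with SE 0.67 in RAG2KO against naive, and -0.09 with SE 0.67 between the hosts).

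**Figure D2:**
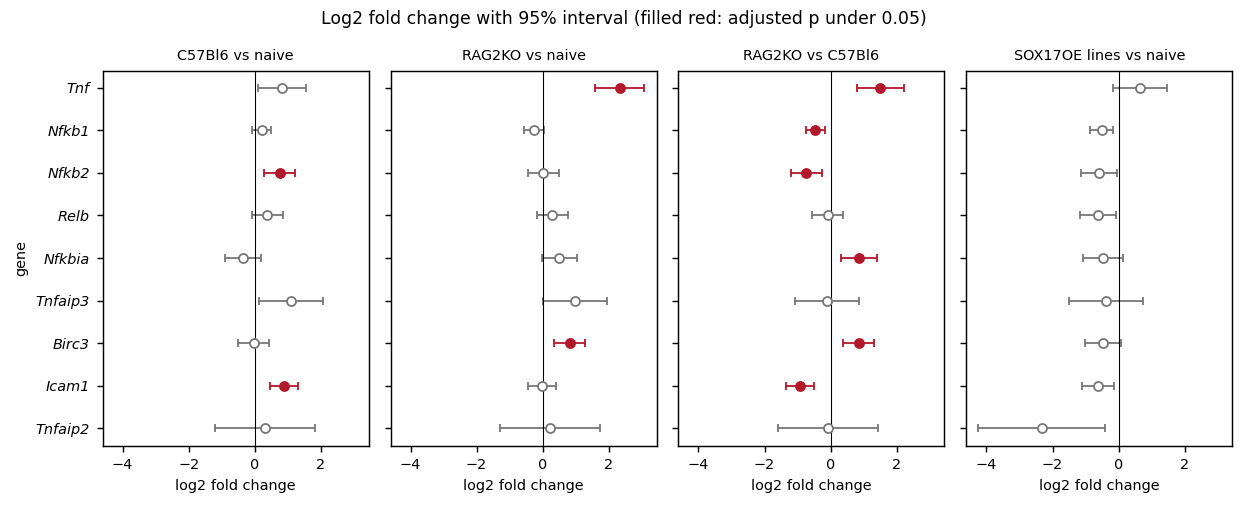
Log2 fold change (horizontal axis) of each gene (vertical axis) in 4 comparisons, each panel the first group against the second; bars are 95% intervals and filled red points passed at an adjusted p under 0.05. Between RAG2KO and C57Bl6 organoids Tnf, Nfkbia and Birc3 lie to the right of 0 and Nfkb1, Nfkb2 and Icam1 to the left.

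The 2 SOX17OE lines were low for most of the 9 genes, and they differed from each other. Of the 11 libraries the inducible line was the lowest for 5 of the 9 genes (9.74% of all genes had their lowest value there) and the constitutive line for 3 (10.1%). Nfkb1 was at 37.5 CPM in the constitutive and 50.5 in the inducible line, Nfkb2 at 34.8 and 21.8, Birc3 at 12.0 and 14.6 and Tnfaip2 at 6.05 and 3.15 CPM, each below all 3 naive libraries (23.0% of all genes were). 4 genes lay below naive in 1 line alone. Icam1 did so in the constitutive line (6.92 CPM, against 13.9 in the inducible line), and Nfkbia (75.4 constitutive and 39.9 CPM inducible) and Relb (20.0 and 11.3 CPM) in the inducible line. Tnfaip3 was above the naive libraries in the constitutive line (26.7 CPM) and below them in the inducible line (5.71 CPM). The inducible line, which had the lower Sox17 level, was below the constitutive line for 6 of the 9 genes, Tnf, Tnfaip3, Relb, Nfkb2, Nfkbia and Tnfaip2, where 49.1% of all genes were, and with 1 library per line this has no replicate check.

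Taken as the mean of the 2 lines against naive, where each line was assumed to vary like the replicated groups, the log2 fold changes were -0.52 for Nfkb1 (SE 0.15, adjusted p = 0.0529), -0.60 for Nfkb2 (SE 0.24, adjusted p = 0.124) and -0.62 for Relb (SE 0.24, adjusted p = 0.117). They were -0.62 for Icam1 (SE 0.22, adjusted p = 0.0874), -2.32 for Tnfaip2 (SE 0.85, adjusted p = 0.102), -0.48 for Nfkbia (SE 0.27, adjusted p = 0.259), -0.48 for Birc3 (SE 0.24, adjusted p = 0.214), -0.39 for Tnfaip3 (SE 0.50, adjusted p = 0.634) and 0.64 for Tnf (SE 0.36, adjusted p = 0.257). The median of the 9 was -0.52 and that of all genes -0.01. Nfkb1 passed without naive replicate 1 (0.0406), RAG2KO replicate 1 (0.0482) or the inducible line (0.0410), with DESeq2 (0.0207) and with limma voom (0.0150; range 0.0150 to 0.433). Nfkb2 passed without RAG2KO replicate 2 (0.0440), with limma voom (0.0408) and in a fit of the groups compared (0.0493; range 0.0408 to 0.616). Icam1 passed without the inducible line (0.0341) and with limma voom (0.0307; range 0.0307 to 0.856). Tnfaip2 passed with DESeq2 (0.0454) and in a fit of the groups compared (0.0196; range 0.0196 to 0.295).

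**Figure D3:**
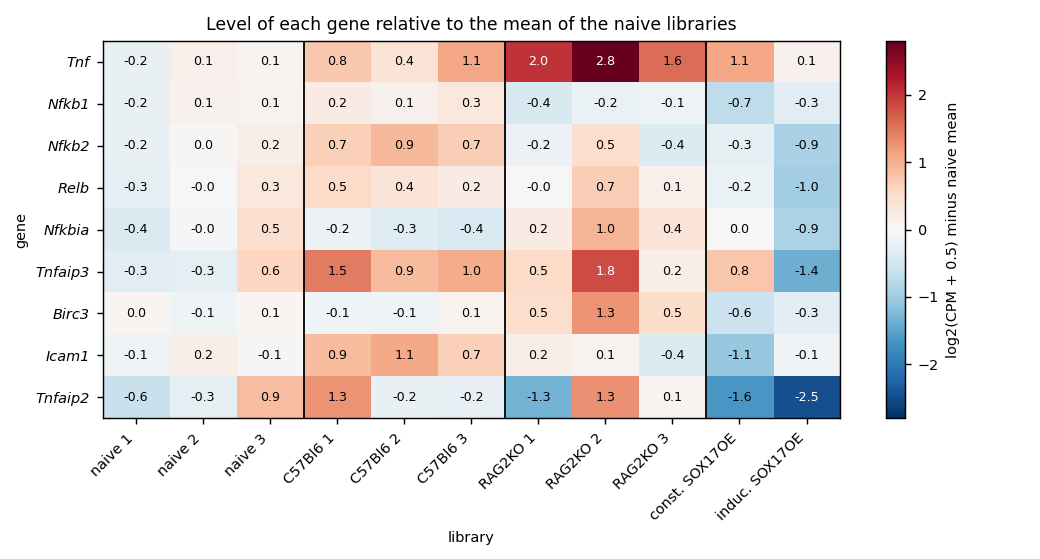
Level of each gene (rows) in each library (columns) as log2(CPM + 0.5) minus the mean of the naive libraries; red is above and blue below that mean, and the numbers are the values. Tnf is red in all 6 tumour libraries, RAG2KO replicate 2 is red for 8 of 9 genes, and the inducible line is blue for 8 of 9.

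Replicates of a group did not hold the genes at 1 level. RAG2KO replicate 2 was the highest of its group for 7 of the 9 genes, where 34.2% of all genes had their highest value, and naive replicate 3 was the highest of its group for 6 (40.5% of all genes). The 6 genes Tnfaip3, Nfkbia, Birc3, Relb, Nfkb2 and Tnfaip2 were highest in both of these libraries within their groups. By the mean absolute difference of the log2 levels over the 11 libraries, each gene set to its naive mean, the nearest pair among the 9 was Relb and Nfkb2 (0.21) and the farthest Tnf and Tnfaip2 (1.42). The same measure was taken over the tested genes, with predicted genes and ribosomal pseudogenes left out by name. It placed the adaptor gene Traf3 nearest to Nfkb2 (0.14), the kinase gene Ikbke nearest to Birc3 (0.16) and Gpr115 nearest to Tnf (0.24). Mcc was nearest to Icam1 (0.10), Rnf103 to Nfkbia (0.19) and Dctn1 to Nfkb1 (0.06). The chromosomes that carry the 9 genes had median log2 differences from naive of -0.14 to 0.08 in each library.

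The wider pathway was followed in a list of 115 genes in 7 roles, the 9 genes included, of which 108 could be tested. Il1b, Il6, Lta, Saa3, Mmp9, Tnfsf11 and Tnfsf14 had 0 to 7 counts in a library and were not tested. In C57Bl6 organoids 20 were higher and 5 lower than in naive organoids (23.1% of the list, 15.3% of all genes; 11 in all without naive replicate 1 or 2 and 15 without replicate 3), with a median log2 fold change of 0.32 against 0.02 over all genes. In RAG2KO organoids 25 were higher and 6 lower (28.7%, against 29.2% of all genes), with a median of 0.21 against 0.02. Between the hosts 12 were higher and 14 lower in RAG2KO organoids (24.1%, against 24.0% of all genes), with a median of -0.01 against -0.0011. With the 9 genes set aside, 9 were higher and 11 lower of 99 tested (20.2%), a share below that of all genes. The 26 calls of the whole list fell to between 12 and 17 without C57Bl6 replicate 2 or 3, any 1 of the RAG2KO replicates or naive replicate 2. In the SOX17OE lines 5 were higher and 5 lower (9.26%, against 12.7% of all genes), with 0 called without naive replicate 3, 1 without naive replicate 2 or the constitutive line, and 13 at most.

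Among the ligands, 2 of 9 rose in C57Bl6 organoids (9.50% of all genes did) and 4 of 9 in RAG2KO organoids (16.0% of all genes). DESeq2 called 2 higher and 1 lower in C57Bl6 and 5 higher in RAG2KO organoids, and limma voom 4 higher and 1 lower in C57Bl6 and 6 higher in RAG2KO organoids. Il18, an epithelial cytokine of the interleukin 1 family, had 1.43, 1.31 and 0.906 CPM in naive, 1.31, 1.51 and 1.92 in C57Bl6 and 12.5, 5.26 and 3.87 CPM in RAG2KO libraries, and was higher in RAG2KO than in naive (log2 fold change 2.56, SE 0.46, adjusted p = 0.00394) and C57Bl6 organoids (2.18, SE 0.45, adjusted p = 0.00968). Il33, an alarmin of the same family, had 59.0, 169 and 84.1 CPM in RAG2KO libraries, above the naive range of 33.9 to 52.4 CPM. It was not called in RAG2KO against naive organoids or between the hosts. In C57Bl6 libraries it had 271, 94.9 and 112 CPM. It rose in C57Bl6 organoids from 41.3 ± 9.83 to 160 ± 97.2 CPM (1.95, SE 0.48, adjusted p = 0.0249). Leaving out naive replicate 1 (0.10), 2 (0.0969) or 3 (0.0581) ended that call, as did fits with no filter (0.0633) and with a replicate block (0.0594; range 9.17e-05 to 0.10).

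Of 15 receptor genes 2 rose and 2 fell in C57Bl6 organoids (26.7% called, 15.3% of all genes), and 3 rose and 3 fell in RAG2KO organoids (40.0%, against 29.2% of all genes). DESeq2 gave the same counts, and limma voom 5 higher and 2 lower in C57Bl6 organoids. Il1r1, the signalling receptor of interleukin 1, had 4.22, 4.60 and 2.10 CPM in naive, 14.1, 22.2 and 24.1 in C57Bl6 and 20.6, 37.9 and 19.4 CPM in RAG2KO libraries, with no overlap of the tumour groups with naive. It rose by 2.47 (SE 0.37, adjusted p = 0.00219) and 2.84 (SE 0.37, adjusted p = 9.78e-04). The receptors of TNF and lymphotoxin, Tnfrsf1a and Ltbr, were not called in any comparison (log2 fold changes of -0.25 to 0.33). Between the hosts 2 receptor genes were lower in RAG2KO organoids and 0 higher. This was 13.3% of the 15, against 24.0% of all genes called and 12.2% called lower. The first by adjusted p was Tnfrsf1b, the second TNF receptor (-0.52, SE 0.16, adjusted p = 0.0405). Its call ended without any 1 of the C57Bl6 replicates (0.0983, 0.0605 and 0.0897), RAG2KO replicate 1 (0.0900) or 3 (0.124), naive replicate 1 (0.0603) or 2 (0.0604), with a replicate block (0.0864), in a fit of the 2 groups alone (0.0591) and under 2 other scalings (0.0516 and 0.0788; range 0.0251 to 0.124).

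Among 31 genes of adaptors and ubiquitin enzymes 3 rose and 3 fell in C57Bl6 and 4 rose and 2 fell in RAG2KO organoids, which is 19.4% of the genes in each case, against 15.3% and 29.2% of all genes. With DESeq2 these were 4 and 3 in C57Bl6 and 6 and 3 in RAG2KO organoids, and with limma voom 6 and 4, and 8 and 5. Tnip3, which encodes an A20-binding inhibitor, had 42.3, 45.3 and 42.1 CPM in naive, 56.2, 42.2 and 37.2 in C57Bl6 and 100.6, 204 and 110 CPM in RAG2KO libraries. It was higher in RAG2KO organoids than in naive (log2 fold change 1.68, SE 0.26, adjusted p = 0.00212) and C57Bl6 organoids (1.61, SE 0.26, adjusted p = 0.00405), calls that held under each alternative run. Traf3, which encodes a brake on NIK, was highest in C57Bl6 organoids, with 33.3 ± 2.75 CPM in naive, 53.5 ± 4.25 in C57Bl6 and 31.7 ± 4.91 in RAG2KO organoids. It rose in C57Bl6 organoids (0.68, SE 0.14, adjusted p = 0.0106; 0.0546 without naive replicate 1; range 4.74e-04 to 0.0546) and was lower in RAG2KO than in C57Bl6 organoids by 0.75 (SE 0.14, adjusted p = 0.00688).

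The IKK complex genes Chuk and Ikbkb were not called in any comparison (log2 fold changes of -0.19 to 0.22). Ikbkg, the regulatory subunit NEMO, had 44.7, 40.1 and 46.0 CPM in naive, 49.6, 48.1 and 47.1 in C57Bl6 and 57.6, 72.3 and 69.4 CPM in RAG2KO libraries, with the RAG2KO libraries above the others. It rose in RAG2KO organoids by 0.61 (SE 0.12, adjusted p = 0.00636) and was higher than in C57Bl6 organoids by 0.46 (SE 0.12, adjusted p = 0.0240). The call between the hosts ended without C57Bl6 replicate 3 (0.0749) or RAG2KO replicate 2 (0.0743) or 3 (0.0700) and with library totals (0.0519; range 0.00347 to 0.0749). Map3k14, the kinase NIK, had 2.27 CPM in naive, 5.03 in C57Bl6 and 2.5 in RAG2KO organoids on average and did not pass in C57Bl6 against naive (1.13, SE 0.36, adjusted p = 0.0621) or between the hosts (-1.0, SE 0.37, adjusted p = 0.0701). The first passed with DESeq2 (0.0335) and limma voom (0.0243), and the second without naive replicate 1 (0.0402). Rela, the main activating subunit, and Rel were not called in any comparison (log2 fold changes of -0.59 to 0.43), though Rela passed in the SOX17OE lines without naive replicate 1 (0.0486).

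Among 6 inhibitor genes, Bcl3, an atypical inhibitor that works with p50 and p52 in the nucleus, had 23.5 ± 4.87 CPM in naive organoids. It was lower in RAG2KO than in C57Bl6 organoids (19.3 ± 1.54 CPM where C57Bl6 had 35.2 ± 7.78, a log2 fold change of -0.87, SE 0.21, adjusted p = 0.0158). That call ended without C57Bl6 replicate 3 (0.0574) or RAG2KO replicate 3 (0.0503; range 0.00269 to 0.0574). Nfkbie, the inhibitor IkappaBepsilon, had 2.25, 2.81 and 2.42 CPM in C57Bl6 libraries, above the naive range of 0.620 to 1.36 CPM. These values also lay within the RAG2KO range of 1.75 to 3.39 CPM. The gene was not called in C57Bl6 against naive organoids or between the hosts. It rose in RAG2KO organoids from 1.01 ± 0.371 to 2.52 ± 0.824 CPM (1.33, SE 0.41, adjusted p = 0.0356). That call was lost without naive replicate 2 (0.102) or 3 (0.120), C57Bl6 replicate 3 (0.0506) or RAG2KO replicate 1 (0.0612) or 2 (0.118), over a range of 0.0152 to 0.120.

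Of 31 target genes 12 rose and 0 fell in C57Bl6 organoids and 10 rose and 1 fell in RAG2KO organoids, while between the hosts 3 were higher and 4 lower. The shares called were 38.7%, 35.5% and 22.6%, against 15.3%, 29.2% and 24.0% of all genes. DESeq2 gave 16 and 0 in C57Bl6, 12 and 0 in RAG2KO and 4 and 4 between the hosts, and limma voom 17 and 1, 11 and 2, and 1 and 3. Plau, the urokinase protease, had 5.36, 6.0 and 4.91 CPM in naive, 55.3, 56.9 and 57.6 in C57Bl6 and 48.6, 75.3 and 28.3 CPM in RAG2KO libraries, and rose by 3.38 (SE 0.31, adjusted p = 1.65e-04) and 3.22 (SE 0.31, adjusted p = 2.20e-04). Ccnd1, the cyclin D1 gene and also a Wnt target, had 347 ± 16.3 CPM in naive organoids and rose in C57Bl6 organoids (0.89, SE 0.15, adjusted p = 0.00334). It was lower in RAG2KO than in C57Bl6 organoids (363 ± 65.7 against 644 ± 52.8 CPM, -0.83, SE 0.15, adjusted p = 0.00521). Many genes on this list answer to other pathways as well.

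In the SOX17OE lines the first call by adjusted p within each role that had one was that of Tnip3 (76.7 CPM in the constitutive and 102 in the inducible line, log2 fold change 1.03, SE 0.28, adjusted p = 0.0417), Bcl3 (9.28 and 13.6 CPM, -1.07, SE 0.24, adjusted p = 0.0212), Tlr4, the receptor of bacterial lipopolysaccharide (16.7 and 10.5 CPM, -0.78, SE 0.16, adjusted p = 0.0151), and Gadd45b, a stress-induced target gene (51.6 and 25.7 CPM, 0.75, SE 0.16, adjusted p = 0.0184). By the same edgeR test against naive, Tlr4 was also lower in C57Bl6 (-0.72, adjusted p = 0.00680) and RAG2KO organoids (-0.82, adjusted p = 0.00275). Gadd45b was also higher in C57Bl6 (1.01, adjusted p = 0.00165) and RAG2KO organoids (1.38, adjusted p = 3.12e-04). The other 6 of the 10 calls in the lines were of Il1r1, Tapbp and Plau, higher, and of Il17ra, Nos2 and Ptgs2, lower. For Plau and Ptgs2 the inducible line lay within the naive range. Plau was at 32.8 CPM in the constitutive and 5.65 in the inducible line (naive 4.91 to 6.0 CPM). Ptgs2 was at 0 and 3.38 CPM (naive 2.32 to 4.53 CPM). Nos2 had 0 counts in both lines and only 9 to 27 counts in the naive libraries. All 10 calls ended without naive replicate 3. Each of the first 4 calls ended without naive replicate 2 (0.107, 0.0704, 0.0534 and 0.0720) or replicate 3 (0.119, 0.0654, 0.0503 and 0.0576). Without the constitutive line the values of Tnip3, Bcl3 and Gadd45b did not pass (0.121, 0.208 and 0.539), and without the inducible line those of Tnip3 (0.146) and Tlr4 (0.157) did not. Tnip3 also ended without naive replicate 1 (0.0844) or C57Bl6 replicate 2 (0.0514) or 3 (0.0507). With the lines as 2 samples of 1 group Bcl3 (0.0584), Tlr4 (0.0946) and Gadd45b (0.103) did not pass. Over their alternatives the adjusted p ran from 0.00377 to 0.146 for Tnip3, 0.00127 to 0.208 for Bcl3, 3.05e-04 to 0.157 for Tlr4 and 6.93e-04 to 0.539 for Gadd45b.

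**Figure D4:**
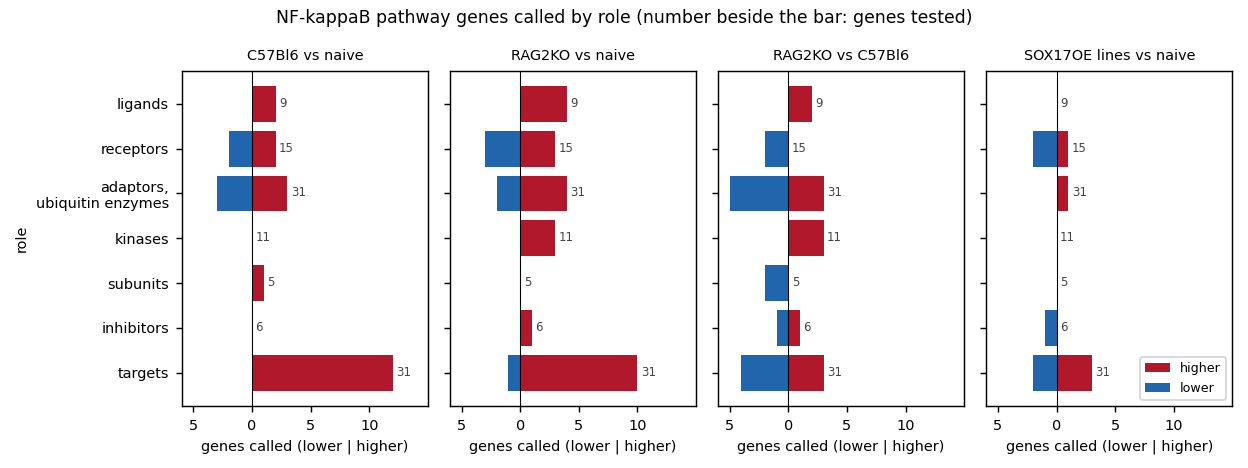
Number of pathway genes called higher (red, to the right of 0) and lower (blue, to the left) by role (vertical axis) in 4 comparisons; the number beside a bar is the genes tested in that role. Targets have the longest bars against naive organoids, 12 higher in C57Bl6 and 10 higher in RAG2KO, and 3 higher and 4 lower between the hosts.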

How the data were processed

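RNA of 11 organoid samples was sequenced after poly(A) selection. Ambion PureLink was the RNA kit and NEBNext Ultra II Directional the library kit, per the labels. Per the submitters' processing notes the authors aligned reads with Bowtie to mm9 and quantified them with RSEM. Versions of these tools and the annotation used are not given in the sources at hand. The deposited values are RSEM expected counts per gene name, which were rounded to whole numbers. Groups were taken from the titles. Nothing in the sources used here says that replicates came from separate cultures or mice, so p-values measure only the spread between these libraries.

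After filterByExpr and TMM scaling, edgeR 4.0.16 (R 4.3.3) fitted its robust quasi-likelihood model on all 11 libraries in 5 groups (common dispersion 0.0641, with 6 residual degrees of freedom and 4.16 prior ones as the median), with two-sided tests and Benjamini-Hochberg adjustment. The script was tested on simulated data. Each SE was taken as the size of the log2 fold change over the root of its F value. DESeq2 1.42.0 and limma 3.58.1 gave alternatives, along with other scalings and filters, a non-robust fit, fits of fewer groups, a replicate block and each library left out.

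The 9 genes and the pathway list were chosen with earlier results of these data known. The text names the 9 genes, 10 genes of the signalling core, Sox17, the first called genes of each role by adjusted p (as a rule up to 3, in the text the first 1, which was decided with the values in view) and, for each of the 9 called in any comparison, the nearest of 3 genes by pattern; Ptgs2 and genes listed as untested or as markers were named after their values were seen. Replicate numbers are shared between groups, but same-numbered libraries did not deviate together (correlations of -0.23 to 0.29 in 9 pairs, 2 of them over 0.1), so the numbers were not taken as pairs.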

Additional observations from a re-analysis of the deposited data

Results flagged for a closer look

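The difference from naive organoids was not the same in the 2 hosts for 6 of the 9 genes, by the direct test of RAG2KO against C57Bl6 tumour organoids in edgeR. The log2 difference was 1.5 for Tnf, 0.85 for Birc3 and 0.86 for Nfkbia, all higher in RAG2KO organoids in 3 of 3 libraries, and -0.46 for Nfkb1, -0.74 for Nfkb2 and -0.92 for Icam1, all lower in 3 of 3 libraries. In the same comparison 24.0% of all genes were called. The share of Rn45s in the counts was also higher in the 3 RAG2KO libraries (6.56 to 8.54%) than in the 3 C57Bl6 libraries (2.21 to 3.77%), and its part in these differences was not tested.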

How the results depend on the processing

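Over 36 results for single genes of the 9, 707 of 756 alternative values kept their side of the threshold, 29 lost a call and 20 gained one. None of these turned a called direction. Most of the 36 results were not called in the main fit and so had no call to lose. The calls of Nfkb1 and Nfkb2 between the hosts each ended in 8 of 21 alternatives. That of Nfkb2 in C57Bl6 against naive organoids ended in 6 of 21. The number of the 9 genes called in C57Bl6 against naive organoids was 2, and 4 with limma voom; it ran from 0 to 3 with a library left out. In RAG2KO against naive organoids it was 2, 4 with voom and 1 to 3 with a library left out. Between the hosts it was 6, and 3 to 6 with a library left out. For the SOX17OE lines it was 0, against 2 with DESeq2, 3 with voom, 2 in a fit of the groups compared alone and 0 to 2 with a library left out. Of all genes, 2106 were called in C57Bl6 organoids (4086 with voom, 1030 to 2328 with a library left out, lowest without naive replicate 2), 4010 in RAG2KO organoids (2041 to 4184, lowest without naive replicate 2), 3295 between the hosts (1857 to 3311, lowest without C57Bl6 replicate 3) and 1741 in the SOX17OE lines (2711 with DESeq2, 3825 with voom, 2630 in a fit of the groups compared, 864 with the lines as 1 group and 85 to 1931 with a library left out, lowest without the constitutive line). The cause of these changes was not tested, other than that a fit with a library left out has fewer samples. Of the pathway list, 25 genes were called in C57Bl6 organoids (46 with voom, 11 to 28 with a library left out), 31 in RAG2KO organoids (21 to 32), 26 between the hosts (15 in a fit of these groups, 12 to 26) and 10 in the SOX17OE lines (16 with DESeq2, 20 with voom, 20 in a fit of the groups compared, 6 with the lines as 1 group, 0 to 13).

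Upper quartile scaling moved the median of all genes between the hosts by 0.10, and the share of higher genes among the calls there was 49.1% with TMM, 63.7% with upper quartile scaling and 36.3% with library totals. With the replicate block the count of the 9 genes was 2, 2 and 6 in the 3 comparisons of naive and tumour organoids, as without it. No paired analysis was possible for the SOX17OE lines because they carry no replicate number.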

Other observations

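Count ratios of 2 genes within a library do not depend on its scaling. For each count of Nfkbia the libraries held 0.177 to 0.230 counts of Tnfaip3 in naive, 0.493 to 0.646 in C57Bl6 and 0.182 to 0.387 in RAG2KO organoids, 0.354 in the constitutive and 0.143 in the inducible line. The C57Bl6 libraries were above all other libraries. For each count of Icam1 there were 0.251 to 0.295 counts of Tnf in naive, 0.171 to 0.378 in C57Bl6 and 1.04 to 1.95 in RAG2KO organoids. The constitutive line, at 1.32, lay within the RAG2KO range and the inducible line, at 0.318, within the C57Bl6 range. For each count of Nfkb1 there were 0.636 to 0.708 counts of Nfkb2 in naive and 0.888 to 1.16 in C57Bl6 organoids, while the RAG2KO libraries ran from 0.562 to 1.07. The constitutive line, at 0.929, lay within the C57Bl6 range and the inducible line, at 0.432, below every other library. These are descriptions of single libraries with no test.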
